A study of Homo sapiens with 6 samples.

Results

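Nuclear receptors were examined in the human breast cancer line MDA-MB-453 after knockdown of tRF-1-Ser, a small RNA derived from a serine transfer RNA precursor. The set comprised 42 receptor genes, among them the vitamin D receptor VDR. They were chosen by gene symbol as members of this protein family, and all 42 were among the 36517 genes of the count table. Control cells (control, n = 3) were infected with lentivirus that expressed a non-targeting negative-control hairpin, and knockdown cells (shtRF, n = 3) with lentivirus that expressed one directed at tRF-1-Ser. Both groups were sampled at day 3, and messenger RNA was sequenced. Both groups thus carry a lentivirus and a hairpin, and everything below rests on 1 cell line and 1 time point. The labels name no added vitamin D or other receptor ligand for these libraries. The hairpin's target is too small to be measured in them, so within these data the group names rest on the labels. The study checked the efficiency of its tRF-1-Ser knockdown by qPCR, but does not state that these RNA samples were among those checked. The study calls the replicates biological but does not state whether they were separate infections, so p-values measure the spread between these libraries, which may be technical.

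Nuclear receptors are transcription factors that are switched by small fat-soluble ligands such as vitamin D, retinoic acid, thyroid hormone, steroids and fatty acids. They bind short hexamer sequences in DNA with 2 zinc fingers and exchange corepressors for coactivators when ligand binds. VDR, the retinoic acid receptors, the thyroid hormone receptors, the PPARs and the liver X receptors act as heterodimers with a retinoid X receptor (RXR), whereas the glucocorticoid receptor acts mainly as a homodimer. Several members are called orphan receptors because no physiological ligand is established for them. In breast epithelium VDR is best known for responding to the active hormone made from 25-hydroxyvitamin D by CYP27B1, which CYP24A1 then breaks down.

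The stretch of the first zinc finger that reads the bases of the hexamer is called the P-box, and it takes part in setting which hexamer a receptor recognises. It is shown here for VDR, its partner RXRA and 6 of the receptors whose levels changed. A different P-box need not mean a different hexamer, and the spacing of the hexamers depends on other parts and on the partner. Each run of 24 coding bases is written 5′ to 3′ on the sense strand from transcripts of GENCODE release 29 on GRCh38. Capitals mark the codons of the 3 P-box residues that differ between classes of receptors.
VDR (chr12:47878970-47878993, minus strand, exon 4): tgtGAAGGCtgcaaaGGCttcttc
RXRA (chr9:134408963-134408986, plus strand, exon 4): tgcGAGGGGtgcaagGGCttcttc
RARG (chr12:53215426-53215660, minus strand, across 2 exons): tgtGAAGGCtgcaagGGCttcttt
PPARA (chr22:46215319-46218271, plus strand, across 2 exons): tgtGAAGGCtgcaagGGCttcttt
THRA (chr17:40077594-40083843, plus strand, across 2 exons): tgtGAGGGCtgcaagGGCttcttt
NR2F1 (chr5:93585330-93585353, plus strand, exon 1): tgcGAGGGCtgcaaaAGTttcttc
ESRRA (chr11:64307465-64307488, plus strand, exon 2): tgtGAGGCCtgcaaaGCCttcttc
NR3C1 (chr5:143314018-143314041, minus strand, exon 3): tgtGGAAGCtgtaaaGTTttcttc

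The first zinc finger was found by its cysteine pattern in 40 of the 42 members and was missing from NR0B1 and NR0B2, a pair of receptors known to lack a DNA-binding domain. VDR, RXRA, RARG, PPARA and THRA encode the same 3 residues, which were shared by 26 members in all. RARG and PPARA were identical over all 24 bases. NR2F1 shared its P-box with NR2F2 and NR2F6, ESRRA shared its own with ESRRB and ESRRG, and NR3C1 shared its own with NR3C2. In 13 members the run spanned 2 exons.

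Levels between receptors were compared as RPKM (reads per kilobase of exon, scaled to 1000000 counted reads), recomputed from the counts and averaged over all 6 libraries. NR2F1 (COUP-TFI), an orphan receptor, was the most abundant at 82.9 RPKM, and PPARD, a fatty acid receptor, followed at 33.3 RPKM. NR2C2 at 12.3 RPKM, NR2F6 at 11.2, VDR at 10.8, ESRRA at 10.4 and NR1H2 at 10.1 formed a group of similar level. VDR therefore ranked 5 among the 42 receptors, and its level exceeded that of 80.5% of the 19628 genes tested. Its 6 libraries ran from 9.89 to 11.3 RPKM and overlapped those of its neighbours NR2F6 and ESRRA, and its place next to them is not resolved, since each of these orders held in 4 of the 6 libraries.

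Below them lay NR2F2 at 7.22 RPKM, the glucocorticoid receptor NR3C1 at 5.30, THRB at 3.88, RXRA at 3.73, NR2C1 at 3.58, NR1H3 at 3.57, RXRB at 2.75, NR1I3 at 2.14, THRA at 1.91, NR1D2 at 1.81 and RARG at 1.32. A level under 1 RPKM was found for 11 further tested receptors, from RARA at 0.747 through NR2E3, PPARA, NR4A2, NR3C2, NR1D1, ESRRG, NR4A1, ESR2 and NR6A1 to NR4A3 at 0.0486 RPKM. Between the 29 receptors that were tested there are 28 steps in this order. In 17 of them the order was not the same in every library and is not resolved. In the other 11 the higher receptor was higher in each of the 6 libraries, and in 7 of these the ranges of the libraries did not overlap at all. These 7 were those from NR2F1 to PPARD, PPARD to NR2C2, NR1H2 to NR2F2, NR2F2 to NR3C1, NR3C1 to THRB, NR1H3 to RXRB and RXRB to NR1I3. The 4 with overlapping ranges were RARG to RARA, NR4A2 to NR3C2, NR3C2 to NR1D1 and NR6A1 to NR4A3. The order also rests on the annotated exonic length, which is the same in every library, so agreement between libraries does not test it. Before division by length NR2F2 (6459 bases) held more counts than NR1H2 (3753 bases) in each library. NR2F1 still held more than PPARD in each.

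**Figure D1:**
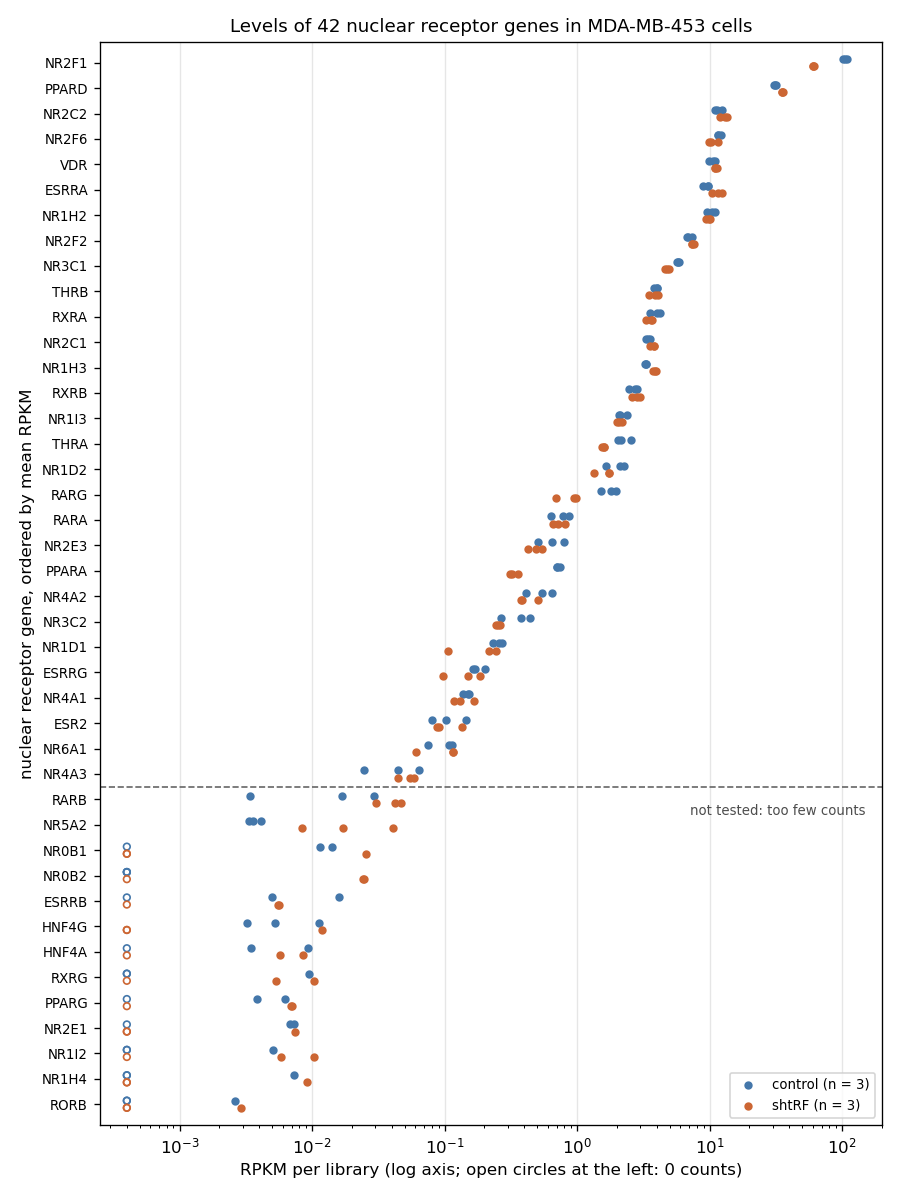
Nuclear receptor levels as RPKM in each of the 6 libraries on a log axis, ordered by mean level, with control and shtRF libraries in separate colours. NR2F1 stands at the top at a mean of 82.9 RPKM, VDR ranks 5 at 10.8 RPKM, and the 13 receptors that were not tested lie at the lower end.

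The other 13 receptors had too few reads to be tested. For 6 of them no library held more than 3 counts, namely the bile acid receptor NR1H4, the adipocyte receptor PPARG, RXRG, RORB, NR2E1 and NR0B2. These are near absent in this line at this depth, since a count of 0 allows up to 3 counts in a library. The remaining 7 were RARB, NR5A2, NR0B1, ESRRB, HNF4G, HNF4A and the xenobiotic receptor NR1I2, with between 0 and 22 counts in any library. Thus RXRA and RXRB, but not RXRG, PPARD and at a low level PPARA, but not PPARG, and the liver X receptors NR1H2 and NR1H3, but not the bile acid receptor, were measured in these cells. NR5A2 held 2, 2 and 2 counts in the control and 9, 22 and 4 in the shtRF libraries. It was the 1 receptor of the 13 past the threshold when no filter on low counts was applied (edgeR adjusted p = 0.0424 over 36517 genes), and the counts behind it are few. RARB held 4, 8 and 1 counts in the control and 12, 8 and 10 in the shtRF libraries (adjusted p = 0.390 with no filter).

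The cells kept the expression of an epithelial line in both groups. Summed over 9 epithelial, luminal or apocrine markers, the level was 2891 to 3192 RPKM in the control and 3615 to 3862 RPKM in the shtRF libraries. XBP1 made up most of that sum, at a mean of 2215 RPKM in the control and 2643 RPKM in the shtRF libraries. Of the 9, XBP1, KRT8, KRT18, KRT7 and TFAP2B rose, ERBB2 fell (log2 fold change -0.19, adjusted p = 0.0114), and EPCAM, FOXA1 and SPDEF did not pass. The sum of 11 markers of blood, endothelial, fibroblast and basal cells was 5.40 to 6.44 RPKM in the control and 4.85 to 6.16 in the shtRF libraries, and it came mainly from COL1A1, CD68 and TP63. COL1A1 fell from a mean of 3.34 to 2.09 RPKM (adjusted p = 2.88e-07), CD68 rose from 2.19 to 3.14 RPKM (adjusted p = 0.00143) and TP63 fell from 0.394 to 0.261 RPKM (adjusted p = 0.0201). The other 8 were at most at 0.0759 RPKM in any library, and PTPRC, CD3E, CDH5 and DCN had at most 6 counts in any. The part of these markers in the receptor values was not tested. In bulk RNA, fewer cells that express a gene and less of its RNA per cell cannot be told apart. Library totals lay between 63541413 and 78917459 counts.

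Knockdown of tRF-1-Ser was compared with control to see whether receptor transcripts differed between the groups. Of the 29 tested receptors 5 were higher in shtRF (17.2%, against 20.6% of all tested genes) and 5 were lower (17.2%, against 18.9%), so the share of receptors past the threshold was close to the background. A total of 10 receptors, or 34.5%, changed at an adjusted p under 0.05 in edgeR's quasi-likelihood test, against 39.5% of all genes. Those higher were PPARD, NR2C2, ESRRA, NR2F2 and NR1H3, and those lower were NR2F1, PPARA, RARG, THRA and NR3C1. A fall of over 1.5-fold was found for 3 of the 29 receptors, NR2F1, RARG and PPARA, against 6.83% of all genes. A rise of over 1.5-fold was found for 0 of the 29, against 6.22% of all genes. These counts are few, and a difference in size between the 2 directions was not tested. The median log2 fold change of the 29 was -0.02, and that of all tested genes was -0.0025. At an unadjusted p under 0.05 there were 14 receptors (48.3%, against 46.5% of all tested genes).

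The calls were unevenly spread over levels. Of 18 receptors with a mean of at least 1 RPKM, 9 changed (against 48.2% of the 12999 genes at that level). Of 11 receptors under 1 RPKM only PPARA changed (9.09%, against 22.3% of 6629 genes). The median standard error of the log2 fold change was 0.0655 for the 18 receptors and 0.210 for the 11, so changes were less finely resolved at low level. Over all tested genes it was 0.0755 at the higher and 0.352 at the lower level. The part of this resolution in the share of receptors called was not tested. The libraries of the groups did not overlap for 11 of the 29 receptors, against 48.7% of all genes. These were 9 of the 10 that changed, all but NR2C2, together with VDR and NR2C1.

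**Figure D2:**
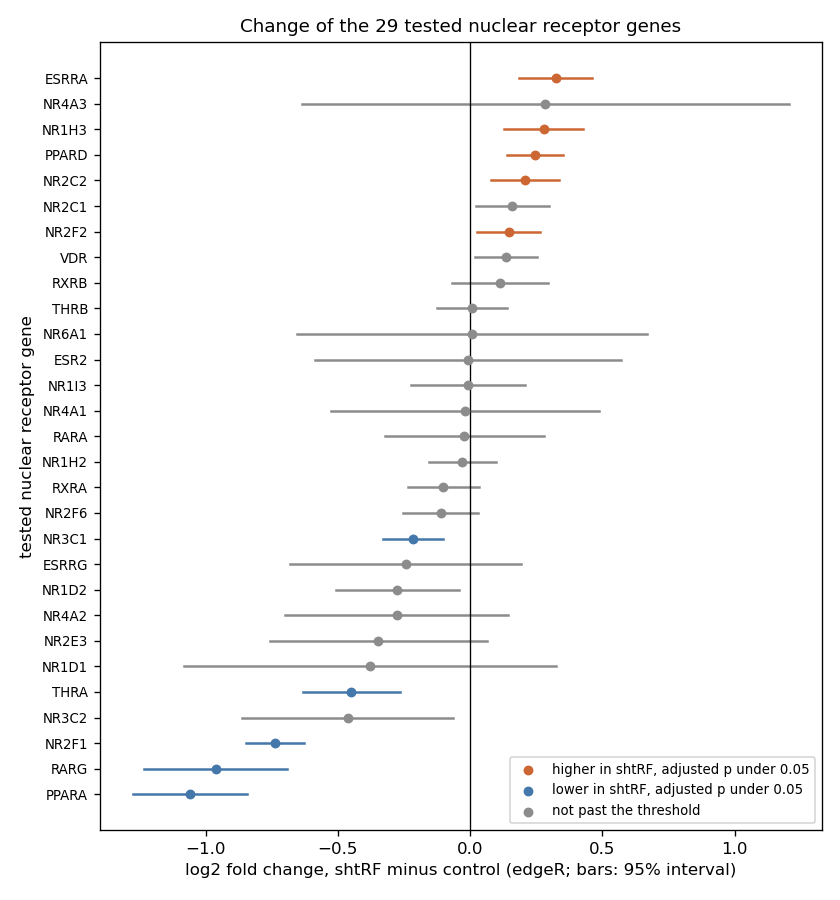
Log2 fold change of shtRF over control for the 29 tested receptors, ordered by size, with 95% intervals that are not adjusted for multiple testing. The largest differences are the falls of PPARA, RARG and NR2F1 at -1.06, -0.96 and -0.74, and all rises stay at or below 0.32.

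VDR (chr12:47841537-47943048 on GRCh38, minus strand) was measured at 59.3, 61.1 and 55.5 CPM (counts per 1000000, with library totals scaled by TMM) in the control libraries and at 62.1, 65.4 and 65.8 CPM in the shtRF libraries. Each shtRF library was above each control library, by a narrow margin between the highest control and the lowest shtRF library. The means were 58.7 ± 2.89 (SD, n = 3) and 64.4 ± 2.00 CPM (SD, n = 3). The log2 fold change was 0.14 (95% interval 0.02 to 0.25, not adjusted for multiple testing), and the adjusted p of 0.0609 missed the threshold. Under the 17 alternative analyses the adjusted p of VDR ranged from 0.0577 to 0.261 and never passed. A difference of the size of the upper bound, 0.25 on the log2 scale, is thus the most that this interval leaves room for.

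The study measured VDR by qPCR in breast cancer lines relative to an immortalised breast line, which is not the comparison made here. It reports higher VDR and CYP27B1 and relatively low CYP24A1 in MDA-MB-453. Its VDR primer pair shows which part of the transcript such an assay reads. Both primers lie in coding exons of the gene, the forward one at chr12:47865051-47865071 in exon 5 and the reverse one at chr12:47857533-47857553 in exon 6.
VDR forward primer: gtggacatcggcatgatgaag
VDR reverse primer: ggtcgtaggtcttatggtggg
They enclose 181 bases of spliced transcript and match 5 of the 7 coding VDR transcripts of GENCODE release 29. The counts used here cover all exons of the gene and do not separate its transcripts.

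RXRA, the more abundant RXR partner, was at 42.8, 44.3 and 38.0 CPM in the control and at 38.6, 37.0 and 41.0 CPM in the shtRF libraries. The groups overlapped, with a log2 fold change of -0.10 (95% interval -0.24 to 0.03, adjusted p = 0.235). Without control replicate 3, its lowest control library, the value was -0.16 with an adjusted p of 0.0451. RXRB was at 10.6, 10.9 and 9.62 CPM in the control and at 11.6, 10.6 and 11.3 CPM in the shtRF libraries, a log2 fold change of 0.11 with an adjusted p of 0.338. Its groups overlapped as well, and 6.22% of its exonic bases are shared with SLC39A7 on the opposite strand. None of VDR and its measured RXR partners therefore passed the threshold in the main analysis.

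NR2F1 (chr5:93583337-93594615, plus strand), an orphan receptor known from the development of nervous system and heart, showed the largest fall in absolute level. It was at 446, 418 and 437 CPM in the control and at 253, 261 and 265 CPM in the shtRF libraries, so that the groups lay far apart. The mean fell from 434 ± 14.7 to 259.9 ± 5.79 CPM (SD, n = 3 each), 1.67-fold lower, with its log2 fold change at -0.74 ± 0.05 (SE) and an adjusted p of 2.30e-10. The antisense gene NR2F1-AS1, which shares 3.76% of the exonic bases of NR2F1, had a log2 fold change of 0.0075 (adjusted p = 0.940). Because NR2F1 was so abundant, its fall set the summed level of the whole family. All 42 receptors together came to 236, 231 and 229 RPKM in the control and to 192, 188 and 194 RPKM in the shtRF libraries. NR2F1 made up 44.0% to 46.0% of that sum in the control and 31.7% to 31.8% in the shtRF libraries. Without NR2F1 the sum was 128, 130 and 124 RPKM in the control and 131, 128 and 132 RPKM in the shtRF libraries, and the groups overlapped.

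**Figure D3:**
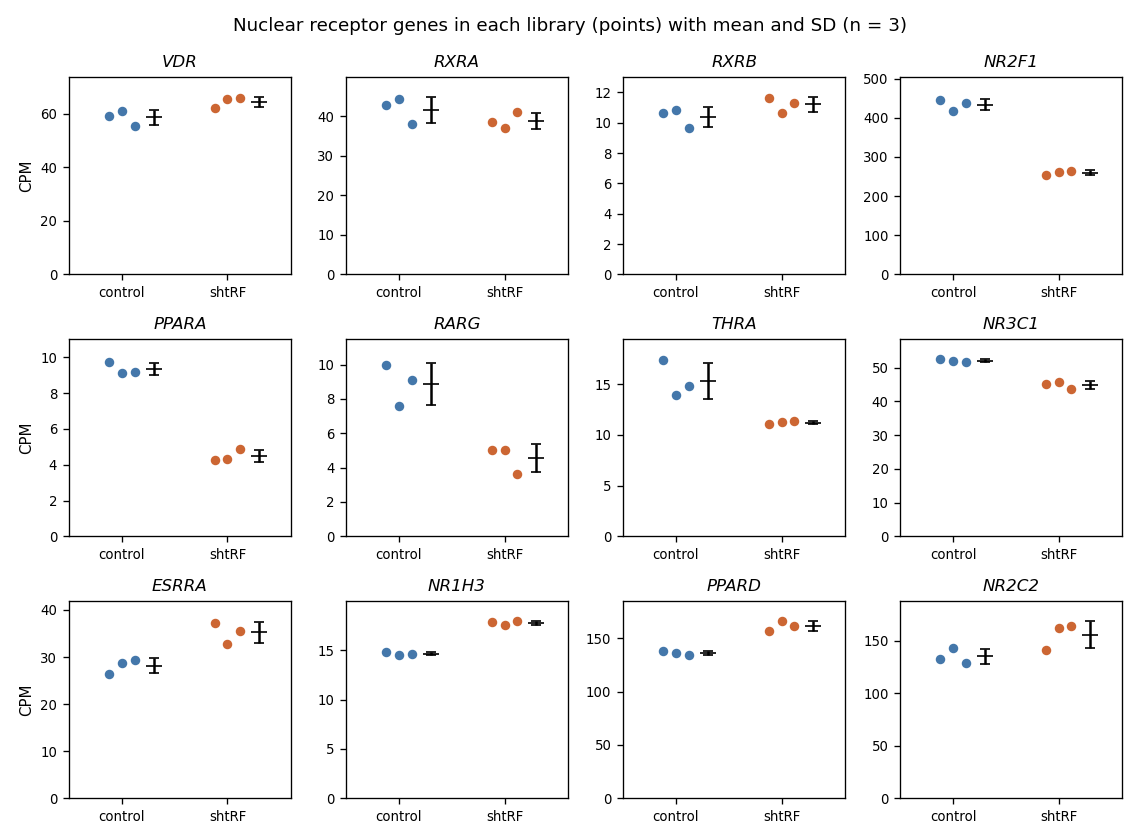
CPM of VDR, its partners RXRA and RXRB and 9 of the 10 changed receptors in each library, 1 panel per gene with its own axis starting at 0, points for libraries and the group mean with its SD. VDR, RXRA and RXRB sit close between groups, whereas NR2F1, PPARA and RARG show a wide gap, with NR2F1 at 253 to 265 CPM in shtRF against 418 to 446 in control.

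The values of the other NR2F receptors lay closer between the groups, and their difference from NR2F1 was not tested. NR2F2 (COUP-TFII) was at 43.8, 46.1 and 43.1 CPM in the control and at 47.2, 49.8 and 50.1 CPM in the shtRF libraries, a small rise of 0.15 ± 0.06 on the log2 scale at an adjusted p of 0.0464. This call was lost under 15 of 17 alternatives, among them the omission of control replicate 1 (adjusted p = 0.129), control replicate 3 (0.112), shtRF replicate 1 (0.0502), shtRF replicate 2 (0.138) and shtRF replicate 3 (0.150). NR2F6 went from 31.1 ± 1.09 to 28.8 ± 2.57 CPM and did not pass (log2 fold change -0.11, adjusted p = 0.216). NR2C2 (TR4) was at 132, 143 and 129 CPM in the control and at 141, 162 and 164 CPM in the shtRF libraries. Its groups overlapped, and the log2 fold change of 0.21 ± 0.06 had an adjusted p of 0.0101. The call was lost without control replicate 1 (0.0511), shtRF replicate 2 (0.0582) or shtRF replicate 3 (0.0775), and 11.4% of its exonic bases lie in other genes, 10.1% in MRPS25 on the opposite strand, whose own log2 fold change was 0.35. Its close relative NR2C1 (TR2) went from 22.1 ± 0.853 to 24.7 ± 0.673 CPM, with a log2 fold change of 0.16 and an adjusted p of 0.0620 that became 0.0364 without control replicate 3. The photoreceptor receptor NR2E3, at 2.06 ± 0.453 and 1.61 ± 0.193 CPM, did not pass (adjusted p = 0.178).

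Among fatty acid receptors the 2 expressed PPARs moved in opposite directions. PPARA (chr22:46150521-46243756), the receptor that drives fatty acid oxidation in liver, was at 9.73, 9.11 and 9.17 CPM in the control and at 4.26, 4.30 and 4.89 CPM in the shtRF libraries. It was 2.09-fold lower, with the largest log2 fold change among the 29 tested receptors at -1.06 ± 0.10 (SE, adjusted p = 3.38e-08). PPARD (chr6:35342558-35428191) was at 138, 136 and 134 CPM in the control and at 157, 166 and 162 CPM in the shtRF libraries, without overlap. Its rise was 0.25 ± 0.05 on the log2 scale (adjusted p = 5.41e-04). Per length, PPARD was the far more abundant of the pair, at 33.3 against 0.526 RPKM.

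The liver X receptors sense oxysterols and control cholesterol efflux and fatty acid synthesis. NR1H3 (LXR alpha) was at 14.8, 14.5 and 14.6 CPM in the control and at 17.8, 17.5 and 17.9 CPM in the shtRF libraries, a tight pair of groups that differed by 0.28 ± 0.07 on the log2 scale (adjusted p = 0.00390). A share of 4.17% of its exonic bases is shared with ACP2 on the opposite strand, whose log2 fold change was 0.69. NR1H2 (LXR beta) stayed at 38.1 ± 2.49 and 37.3 ± 0.880 CPM, with a log2 fold change of -0.03 and a 95% interval from -0.16 to 0.10. NR1I3, a xenobiotic receptor of liver, was measured at 7.09 ± 0.545 and 7.04 ± 0.476 CPM (adjusted p = 0.959), but TOMM40L shares 20.0% of its exonic bases.

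Of the retinoic acid receptors, RARG changed and RARA did not pass. RARG (chr12:53210567-53232980, minus strand) was at 9.98, 7.56 and 9.11 CPM in the control and at 5.00, 5.02 and 3.61 CPM in the shtRF libraries. It was 1.95-fold lower, at -0.96 ± 0.13 (SE) on the log2 scale, and had an adjusted p of 3.39e-06. RARA was at 3.56 ± 0.561 and 3.51 ± 0.305 CPM, and its 95% interval of the log2 fold change ran from -0.32 to 0.28. A share of 17.9% of the exonic bases of RARA lies in exons of other genes, among them RARA-AS1. Whether RARG and RARA differed in their response was not tested.

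Of the thyroid hormone receptors THRA passed the threshold and THRB did not, and the difference between them was not tested. THRA was at 17.4, 13.9 and 14.8 CPM in the control and at 11.03, 11.2 and 11.4 CPM in the shtRF libraries, which differed by -0.45 ± 0.09 on the log2 scale (SE, adjusted p = 2.89e-04). All 3 shtRF libraries lay below all 3 control libraries. THRB went from 33.8 ± 0.914 to 33.9 ± 2.40 CPM, with a 95% interval from -0.13 to 0.14, and the sign of its change of 0.0075 depended on the scaling. NR1D1 (REV-ERB alpha), which is encoded on the strand opposite THRA and shares 3.78% of the exonic bases of THRA, was at 0.687 ± 0.0506 and 0.529 ± 0.196 CPM (adjusted p = 0.411).

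NR3C1, the glucocorticoid receptor, was at 52.7, 52.0 and 51.8 CPM in the control and at 45.3, 45.8 and 43.6 CPM in the shtRF libraries. The groups did not overlap, and the fall was small at -0.22 ± 0.05 on the log2 scale (adjusted p = 0.00305). The mineralocorticoid receptor NR3C2 went from 2.35 ± 0.568 to 1.71 ± 0.0875 CPM, a log2 fold change of -0.46 that missed the threshold at an adjusted p of 0.0596. It passed under 5 of the 17 alternatives, and without control replicate 1 its value was -0.64 with an adjusted p of 0.00952. ESRRA, an orphan receptor that drives genes of mitochondrial respiration, was at 26.4, 28.8 and 29.3 CPM in the control and at 37.3, 32.9 and 35.6 CPM in the shtRF libraries. It was the largest rise among the 29 tested receptors, 1.25-fold or 0.32 ± 0.07 on the log2 scale (adjusted p = 4.39e-04), and 9.37% of its exonic bases are shared with TRMT112, a gene whose own change did not pass the threshold (adjusted p = 0.170). ESRRG, at 1.91 ± 0.205 and 1.61 ± 0.465 CPM, and the estrogen receptor beta gene ESR2, at 1.01 ± 0.304 and 0.997 ± 0.268 CPM, did not pass.

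The remaining tested receptors did not pass in the main analysis. NR1D2 (REV-ERB beta), a repressor of the circadian clock, went from 11.5 ± 1.78 to 9.52 ± 1.21 CPM (-0.27 on the log2 scale, adjusted p = 0.0564), and it passed under 7 of the 17 alternatives. Without control replicate 3 the value was -0.40 with an adjusted p of 0.00423. The immediate early receptors NR4A1, NR4A2 and NR4A3 and the germ cell factor NR6A1 were low, between 0.275 and 2.08 CPM in the control, and had adjusted p-values from 0.304 to 0.992. A share of 10.3% of the exonic bases of NR4A1 lies in exons of another gene.

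**Figure D4:**
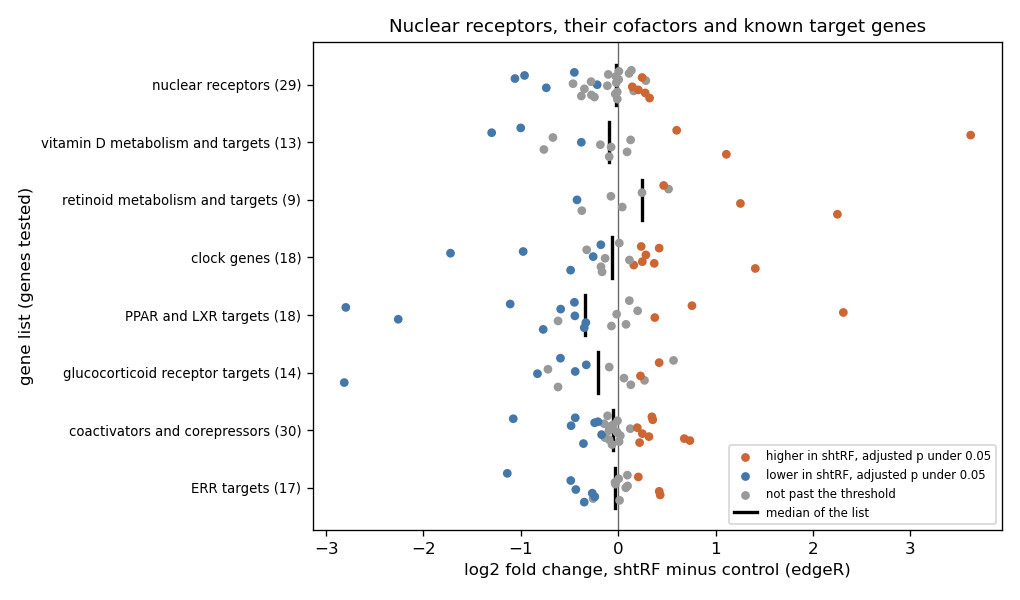
Log2 fold change of each tested gene in the receptor family and in 7 lists of pathway genes, with the median of each list as a black bar and a thin line at 0. The list medians run from -0.34 for the PPAR and LXR targets to 0.24 for the retinoid genes, and that of the glucocorticoid receptor list lies at -0.21.

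Genes known to act around these receptors were read in the same fit. Of 24 listed genes of vitamin D metabolism and response, 13 were tested. Of these 3 were higher and 3 lower (23.1% each, against 20.6% and 18.9% of all tested genes), with a median log2 fold change of -0.09 against -0.0025 for all genes. CYP27B1, the enzyme that makes active vitamin D, was at 4.47 ± 0.338 and 4.25 ± 0.368 CPM (adjusted p = 0.693). CYP24A1, the enzyme that degrades it and the best known VDR target, held 0, 1 and 4 counts in the control and 0, 3 and 0 in the shtRF libraries and was not tested. The list had members on both sides. PTHLH, which encodes parathyroid hormone-related protein, rose from 0.255 ± 0.106 to 3.11 ± 0.516 CPM (3.62 on the log2 scale, adjusted p = 3.05e-10), and 10.5% of its exonic bases are shared with an opposite-strand gene that rose as well (log2 fold change 4.32). CAMP, an antimicrobial peptide gene, rose by 1.11 on the log2 scale (adjusted p = 5.25e-04). The calcium channel gene TRPV6 fell from 67.6 ± 7.20 to 33.7 ± 2.09 CPM (-1.001, adjusted p = 1.95e-10), and SEMA3B, a secreted semaphorin, fell from 1.57 ± 0.513 to 0.635 ± 0.0791 CPM (-1.30, adjusted p = 4.63e-04).

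Of 26 listed targets of the PPARs and liver X receptors, 18 were tested. There 3 were higher (16.7%, against 20.6% of all tested genes) and 9 lower (50%, against 18.9%), with a median log2 fold change of -0.34. SCD, which makes monounsaturated fatty acids, fell from 1160 ± 33.5 to 167 ± 8.71 CPM (-2.80, adjusted p = 4.35e-19). SREBF1, the transcription factor of fatty acid synthesis, fell from 204 ± 23.8 to 94.5 ± 8.15 CPM (-1.11, adjusted p = 7.76e-11). Both are known liver X receptor targets, and of those receptors NR1H3 rose and NR1H2 did not pass. The list pools targets of both kinds of receptor, and genes were named by the size of their change. SCD and SREBF1 therefore do not stand for all liver X receptor targets, and a link to the receptors was not tested.

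Of 20 listed glucocorticoid receptor targets, 14 were tested, 2 higher (14.3%, against 20.6% of all tested genes) and 5 lower (35.7%, against 18.9%), with a median of -0.21. DDIT4, an inhibitor of mTORC1, fell from 395 ± 127.9 to 56.2 ± 2.32 CPM (-2.81, adjusted p = 1.46e-12), and 41.2% of its exonic bases are shared with an opposite-strand gene with nearly the same change (-2.79). For ESRRA, 17 of 20 listed targets of the estrogen-related receptors were tested, 3 higher (17.6%) and 6 lower (35.3%), with a median of -0.03. The angiogenic factor VEGFA fell among them from 404 ± 55.0 to 184 ± 5.31 CPM (-1.14, adjusted p = 4.29e-11).

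Of 23 listed genes of retinoid metabolism and response, 9 were tested, 3 higher (33.3%, against 20.6% of all tested genes) and 1 lower (11.1%, against 18.9%), with a median of 0.24. CYP1B1, an oxidase of retinoids and estrogens, rose from 37.4 ± 2.83 to 89.2 ± 5.50 CPM (1.26, adjusted p = 9.33e-13), and 11.3% of its exonic bases are shared with CYP1B1-AS1. Of 20 clock genes 18 were tested, 7 higher (38.9%) and 5 lower (27.8%), with a median of -0.06. HLF, a clock-controlled activator, fell from 5.54 ± 0.352 to 1.68 ± 0.327 CPM (-1.72, adjusted p = 7.05e-09), and the repressor BHLHE41 rose from 1.26 ± 0.298 to 3.33 ± 0.518 CPM (1.41, adjusted p = 3.33e-06). All 30 listed coactivators and corepressors were tested, 8 higher (26.7%) and 7 lower (23.3%), with a median of -0.06. TBL1X, a subunit of the NCoR corepressor complex, was the 1 of them to fall by over 2-fold, from 35.4 ± 1.67 to 16.8 ± 1.90 CPM (-1.08, adjusted p = 2.18e-10).

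The promoters of the receptors were searched for exact matches to AGGTCA, a hexamer that the P-box shared by VDR and the RXRs can read. Promoter windows from 250 bases before to 50 bases after the start were found in RefSeq (GRCh38.p14) for 37 of the 42 members, and VDR, NR2F6, NR4A2, HNF4G and NR0B2 were not searched. The hexamer stood on either strand in 7 of the 37 (18.9%), against 13.9% of 27305 promoters. Among the 10 changed receptors NR1H3 alone held it, and its site is shown with the hexamer in capitals.
NR1H3 promoter (chr11:47248148-47248177, plus strand): tggtttgcctatAGGTCAgaagcatcccct
A direct repeat of 2 such hexamers with 3 bases between them, the arrangement that VDR and RXR dimers bind, was found in 0 of the 37 and in 2 of the 27305 promoters. With so few matches among all promoters, 0 of 37 was to be expected for any genes, and no conclusion is drawn from it. Variants of the hexamer were not sought, so VDR sites with other letters would be missed. These are matches of letters within these windows only.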

How the data were processed

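Messenger RNA of 6 MDA-MB-453 libraries was analysed, 3 per group by sample title. The authors deposited raw read counts per gene with exon coordinates and exonic length (GRCh38), and also deposited RPKM values. The submitters' processing notes name Trimmomatic 0.36, featureCounts, Subread 1.5.1 and edgeR 3.12.1, and the aligner, annotation and strand setting are not given in the sources used here. In 4991 matched rows 100% of the RPKM values equalled count divided by length and total (relative tolerance 1e-06), so RPKM was recomputed for all genes. Among counts of 1 to 4, 74.2% to 77.1% were even, as when both mates are counted.

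Counts were tested with edgeR 4.0.16 in R 4.3.3 (filterByExpr, minimum count 10, TMM, quasi-likelihood test, group only) over 19628 genes with Benjamini-Hochberg adjustment. The common dispersion was 0.00572. Fold changes are shtRF over control. Intervals use the t distribution of that fit. The fit was also run on counts simulated from its own model and dispersions, with 200 genes changed by at least 2-fold. It recovered 199 of them with 10 false calls. Such a simulation does not speak for smaller changes or for counts that include both mates. Exon overlap was taken from the exon coordinates of the count table, whichever strand.

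Members and gene lists were chosen with earlier results of these data known, so they are no independent evidence. Values per library were to be given for VDR, its tested RXR partners and members changed by over 1.5-fold, and were added for the other changed members and 2 untested ones after their values were seen. Listed genes were named at an adjusted p under 0.05, over 2-fold and a mean of at least 1 CPM, with CYP27B1 and CYP24A1 always. Same-numbered libraries did not deviate together (correlations 0.0592, 0.0178 and 0.0174), so numbers were not treated as pairs. The 17 alternatives included RLE and upper quartile scaling, 3 other filters, DESeq2 1.42.0, limma 3.58.1 on log2(RPKM + 1) and log2(RPKM + 0.1), a replicate block, each library left out, halved counts and genes with exon overlap under 10%.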

Additional observations from a re-analysis of the deposited data

How the results depend on the processing

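The calls for NR2F1, PPARA, RARG, THRA, NR3C1, ESRRA, NR1H3 and PPARD held under all 17 alternatives, and those for NR2C2 and NR2F2 did not. The number of higher receptors fell from 5 to 3 with limma on log2(RPKM + 1), with limma on log2(RPKM + 0.1) and with genes of exon overlap under 10%. Over all tested genes the number higher fell as well, from 4046 to 2900, 2903 and 2828 in that order. A count of 4 higher receptors was found with RLE and upper quartile scaling, at least 10 counts in every library, 1 CPM in 3 libraries, DESeq2 and halved counts. Leaving out each library gave 3 to 5 higher receptors (3 without control replicate 1, shtRF replicate 2 or shtRF replicate 3) and 5 to 7 lower. Over all genes the same omissions gave 3375 to 3950 higher and 3053 to 3601 lower, against 4046 and 3704 in the analysis reported. The lower receptors rose from 5 to 7 with upper quartile scaling, no filter, 1 CPM in 3 libraries and halved counts, where NR1D2 and NR3C2 passed as well, and to 7 without control replicate 3. Over all genes the lower numbered 4174, 3719, 3707, 3840 and 3601 under these alternatives in that order. The called retinoid genes fell from 4 to 2 with limma on log2(RPKM + 0.1) and with the limit on exon overlap, and the called clock genes fell from 12 to 7 with limma on log2(RPKM + 0.1). Counting only receptors of at least 1 RPKM left 18 of the 29 detected. The cause was not tested, except that the overlap limit removes genes. Of all calls, 45.7% were higher under upper quartile scaling, 43.3% and 43.1% under limma, and 52.2% in the analysis reported. With replicate number as a block 5 receptors were higher and 6 lower, NR1D2 being the one added (-0.27, adjusted p = 0.0429), and no other receptor's call changed.

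Changes of sign occurred only for receptors without a call. The log2 fold change of THRB, 0.0075, became -0.028 under upper quartile scaling, -0.0061 with at least 10 counts in every library, -0.012 with 1 CPM in 3 libraries, -0.038 and -0.047 under limma with a pseudocount of 1 and 0.1, -0.0033 with halved counts and -0.0018 with the overlap limit, and that of NR6A1, 0.0055, became -0.031, -0.0032 with no filter, -0.0086 with at least 10 counts, -0.0032 and -0.024 under limma, -0.0080 with the replicate block, -0.0067 with halved counts and -0.0036 with the overlap limit. With single libraries left out, the values ranged from -0.14 to 0.090 for RARA, -0.029 to 0.068 for THRB, -0.078 to 0.0068 for NR1H2, -0.060 to 0.046 for NR1I3, -0.24 to 0.24 for ESR2, -0.19 to 0.097 for NR4A1 and -0.16 to 0.25 for NR6A1.

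Both mates of a pair appear to have been counted, which lowers the independent reads behind low counts. This bears most on tested receptors with few counts, such as NR4A3 at 10 to 30 per library. PPARA, though under 1 RPKM, held 295 to 732 counts per library over its long exons.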
